A study of Danio rerio with 4 samples.

Results

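Positions that carried Flag-tagged Pou5f1 both at late blastula and at the 512-cell stage, but had no Sox2 peak, were described in zebrafish embryos. They were taken from lists of chromatin immunoprecipitation and sequencing (ChIP-seq) peaks. Intervals of the late blastula Pou5f1-Flag, 512-cell Pou5f1-Flag and Sox2 lists that overlapped an Input interval by 1 bp or more were dropped. The rest were merged into 16960 loci, and a locus was kept when it held an interval of both Pou5f1-Flag stages and none of Sox2. This gave 390 loci, 2.30% of all. The 374 loci in all 3 lists, the 4036 loci of late blastula Pou5f1-Flag alone and the 6620 of 512-cell Pou5f1-Flag alone served for comparison. The loci were thus chosen by the authors' peak calls in these 4 lists, so their numbers, and any difference between these classes of loci in reads, are descriptions with no test.

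Pou5f1-Flag was precipitated with the anti-FLAG M2 antibody from maternal-zygotic spiel ohne grenzen (MZspg) embryos, which lack functional Pou5f1 and had received mRNA of the tagged protein, at late blastula (20000000 nuclei) and at the 512-cell stage (2000000 nuclei). The labels state for the late blastula sample that the mRNA was injected at the 1-cell stage, in the smallest amount that rescued the mutant. Sox2 was precipitated with an anti-Sox2 antibody from uninjected wild-type embryos at late blastula (20000000 nuclei). Input chromatin came from wild-type late blastula embryos without a precipitation. Each group held 1 sample of pooled nuclei and no replicate, so no difference here has a replicate check. The Pou5f1-Flag and Sox2 lists differ in genotype, injection of mRNA of a tagged protein and antibody as well as in the factor. The 512-cell list differs from the Sox2 list also in stage and number of nuclei. These cannot be told apart. The Pou5f1-Flag lists of late blastula and of the 512-cell stage differ in the number of nuclei as well as in stage. These cannot be told apart either, so differences between the stages below are differences between lists. No Sox2 sample of the 512-cell stage and no Input of injected embryos was analysed here.

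Pou5f1 of zebrafish, now called Pou5f3, is the relative of mammalian Oct4. It is supplied by the mother and is needed, with SoxB1 factors and Nanog, for the first transcription of the embryo's own genome. Pou factors bind DNA through a POU domain and often do so next to a Sox protein on a joined motif, while the octamer motif can be bound without one. The 512-cell stage lies before the main wave of zygotic transcription and late blastula after it.

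The 3 ChIP lists held 7130 (late blastula Pou5f1-Flag), 7747 (512-cell Pou5f1-Flag) and 6129 (Sox2) intervals, of which 6670, 7573 and 5924 were free of Input. Library totals were not analysed here, so the depth is unknown and reads are compared between lists by rank only. A rank is the place of an interval among the Input-free intervals of its own list by reads, with 1 the strongest. Reads, lengths and p-values per interval are the authors' values. Coordinates are Zv9, counted from 1, and a locus is named by the gene at lower and the gene at higher coordinates as listed for late blastula, unless stated. The place of each locus relative to exons and introns was not analysed here.

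The positions that ranked best at both stages lay beside genes of varied roles. By the worse of its 2 ranks, the first was between arpc2, which encodes a subunit of the actin-nucleating Arp2/3 complex, and mettl5, an RNA methyltransferase gene (chromosome 9, 49096604 to 49097719). It had 377 reads at late blastula (rank 25) and 408 at 512 cells (rank 8). Next was the locus of chrac1, a histone-fold gene of chromatin remodelling, and gatad2b, which encodes a subunit of the NuRD repressor complex (chromosome 19, 43150260 to 43151223), with 197 late blastula and 248 512-cell reads. The locus of pnn, which encodes the splicing protein pinin, and jkamp (chromosome 17, 14006961 to 14008649) had 188 late blastula and 244 512-cell reads. These 3 loci were among the strongest 102 intervals of both lists.

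The next position lay between the cryptochrome gene cry2 and the G protein gene gnb5a (chromosome 25, 4607869 to 4609451), with 380 late blastula reads, the most of any of the 390 loci, and 187 512-cell reads. The other 6 of the 10 best ranked were leg1.1 and tmem244 (169 late blastula and 282 512-cell reads), bzw1a and gtpbp1l (340 and 182), tlk2 and rnd2 (158 and 209), lrp2a and rdh1 (150 and 261), met and zgc:113984 (148 and 220) and the olfactory receptor genes olfcq10 and olfcq19 (142 and 189), in the same order of stages. Of these genes, tlk2 encodes a kinase of chromatin assembly and lrp2a the endocytic receptor megalin. Of these 10 loci, 0 lay beside a gene of the developmental lists, against 41 of all 390 (10.5%). A count over 10 loci is too small to be told apart from that share. The Sox2 interval nearest to each of the 10 lay between 44.3 kb (arpc2) and 273.0 kb (pnn) away.

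Some positions ranked far higher at 512 cells than at late blastula, or the reverse. Stage and the number of nuclei cannot be told apart in these shifts of rank. The 512-cell reads were highest between mrpl38 and fbxl15 (chromosome 12, 46505897 to 46506923), with 20 late blastula reads (rank 6397) and 503 512-cell reads (rank 2). Beside mcm3, which encodes a subunit of the replicative helicase, there were 70 late blastula reads (rank 1239) and 492 512-cell reads (rank 3). The loci at dmd, the dystrophin gene (45 late blastula and 332 512-cell reads), and between cdk5rap1 and gdf11, a Tgf-beta family ligand gene (21 and 330 reads), had the same form. In the other direction, the locus between zgc:171424 and zgc:172065 had 329 late blastula reads (rank 30) and 45 512-cell reads (rank 5320), and that of dhrs13a.1 and cuedc1a had 264 (rank 46) and 91 (rank 869).

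The 2 stages were also set side by side by the ratio of the percentile ranks, late blastula over 512 cells, which gives most weight to positions near the bottom of a list. It was highest between vim, the vimentin gene, and neurod6a, a neural helix-loop-helix gene (chromosome 24, 33575315 to 33576134), with 132 late blastula reads (rank 254) and 33 512-cell reads (rank 7360). The ube2e3 and cerkl locus followed, with 113 and 35 reads, then the msraa and rcan2 locus, with 47 and 35 reads, rabl2 and arsa, with 29 and 32, and cyth4b and plxna1b, with 28 and 32. The last pair of loci were weak at both stages, with late blastula ranks of 5115 and 5303 and a 512-cell rank of 7417. The lowest ratios were at tmem86b and stk17al (16 late blastula and 64 512-cell reads), setdb1b and NM_001114318 (16 and 61), dhps and sun1b (17 and 69), zgc:174904 and gsk3aa (19 and 219) and rab12 and ndufv2 (19 and 73).

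Over all 390 loci, late blastula reads ran from 16 to 380 with a median of 44 (quartiles 34 and 72.8), and 512-cell reads from 32 to 503 with a median of 75.5 (quartiles 57 and 119). For comparison, the 374 loci in all 3 lists had medians of 69.5 late blastula and 102.5 512-cell reads. Loci of a single list had medians of 35 late blastula and 50 512-cell reads, so the 390 loci stood between these classes at both stages. Of the 390, 35 (8.97%, exact binomial 95% interval 6.33 to 12.3) were in the upper 10% of both lists, against 88 (23.5%, 19.3 to 28.2) of the loci in all 3. Such intervals cover counting error over loci only. The reads of the 2 stages were weakly related across the 390 loci (Spearman's rank correlation 0.29, Pearson's r of log2 reads 0.28) and somewhat more across the 374 (0.38 and 0.40). Per base pair of interval, Spearman's rank correlation was 0.24 across the 390 and 0.42 across the 374. These values describe loci of the same libraries that were chosen for presence in both.

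**Figure D1:**
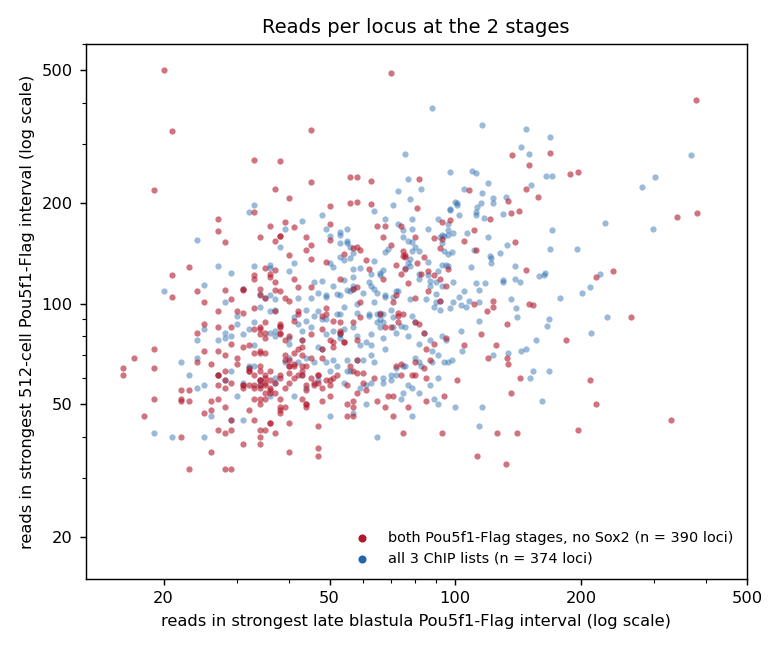
Reads in the strongest late blastula interval (x axis) against reads in the strongest 512-cell interval (y axis), both on log scales, 1 point per locus. The 390 loci without Sox2 have medians of 44 and 75.5 reads, below the 69.5 and 102.5 of the 374 loci in all 3 lists, and the 2 clouds overlap over most of their range.

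How often a Pou5f1 position of a stage was present at the other was set against the Sox2 list. Of the late blastula Pou5f1-Flag loci, 12.6% held a 512-cell interval. This was 390 of 4426 loci without Sox2 (8.81%, exact 95% interval 7.99 to 9.69) and 374 of 1648 with Sox2 (22.7%, 20.7 to 24.8). Of the 512-cell loci, 10.1% held a late blastula interval, which was 390 of 7010 without Sox2 (5.56%, 5.04 to 6.13) and 374 of 551 with Sox2 (67.9%, 63.8 to 71.8). These shares rest on the lists that define the loci. Loci were merged over the Pou5f1-Flag and Sox2 lists together, so a Sox2 interval could join stage intervals that did not overlap each other. Between the strongest stage intervals, the least overlap was -231 bp, a gap, at the 374 loci and 13 bp at the 390. The lower quartile at the 374 was 256.25 bp. The shares with Sox2, here and by reads below, thus follow a looser rule, and how many loci this adds was not counted.

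Stronger positions were present at both stages more often. The late blastula loci were put in 5 groups of like size by reads. Of these groups, 4.11% of the weakest loci without Sox2 (8 to 28 reads) and 17.3% of the strongest (67 to 1016 reads) held a 512-cell interval, against 16.0% and 35.1% with Sox2. In the second group (28 to 35 reads) the shares were 6.83% without (5.34 to 8.58) and 11.9% with Sox2 (7.90 to 16.9). In the middle group (35 to 44 reads) they were 9.17% without and 11.4% with Sox2. The intervals overlapped in both of these groups. In the same 5 groups of the 512-cell loci, 1.66% of the weakest loci without Sox2 (23 to 43 reads) and 18.3% of the strongest (71 to 566 reads) held a late blastula interval. With Sox2 these were 44.4%, of 9 loci only, and 76.8%. The exact 95% interval of that share of 9 loci was 13.7 to 78.8.

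**Figure D2:**
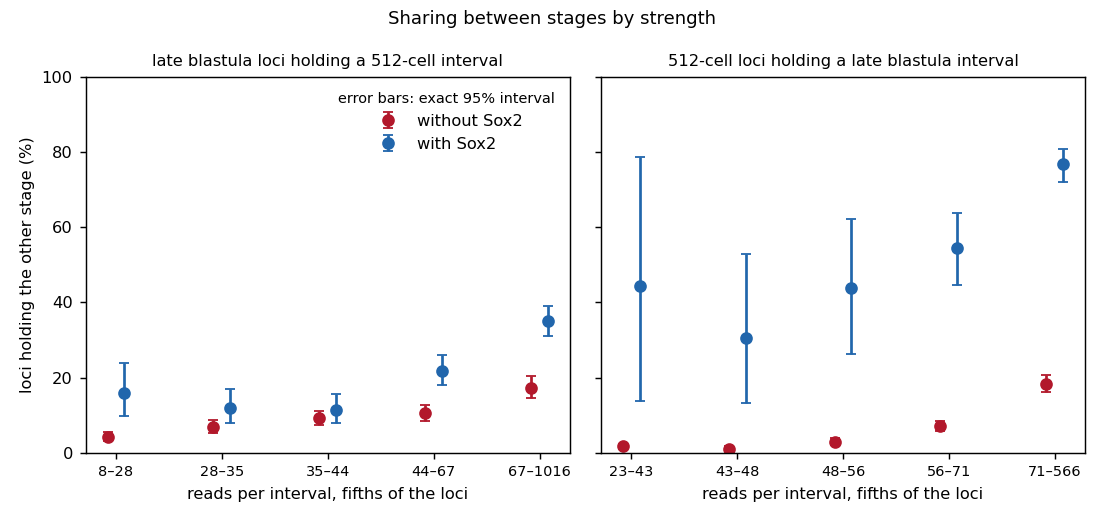
Share of loci that hold an interval of the other Pou5f1-Flag stage (y axis, percent), in 5 groups of the loci by reads (x axis, range of reads), for loci without and with a Sox2 interval. Points are shares and bars exact 95% intervals. In loci with Sox2, a Sox2 interval could join stage intervals that did not overlap each other. Of the strongest 512-cell group, 18.3% without Sox2 and 76.8% with Sox2 held a late blastula interval.

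In all, the 764 loci of both stages split into 390 without and 374 with Sox2, and the split moved with reads. They were put in 4 groups of 191 by reads. In the group with fewest late blastula reads (16 to 37), 135 of 191 loci (70.7%) had no Sox2 interval, against 62 of 191 (32.5%) in the group with most (87 to 380). By 512-cell reads the shares without Sox2 were 72.8% in the lowest group, 51.3% and 38.2% in the next and 41.9% in the highest.

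The intervals of the 2 stages met less closely at the 390 loci than at the loci in all 3 lists. The centres of the strongest late blastula and 512-cell intervals were a median of 82 bp apart, against 53.5 bp in the loci of all 3 lists. In 227 of 390 loci (58.2%, 53.1 to 63.1) the centres were within 100 bp, against 295 of 374 (78.9%, 74.4 to 82.9). The median length of the intervals was 299.5 bp at late blastula and 311 bp at 512 cells, against 393.5 and 354 bp in the loci of all 3 lists and 277.5 and 277 bp in loci of a single stage. Late blastula intervals of 500 to 510 bp made up 8 of 390 (2.05%) and 11 of 374 (2.94%).

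At like read numbers several values of the 2 classes still differed among the strong loci. In the group with 87 to 380 late blastula reads, the centres were within 100 bp in 48.4% of 62 loci without Sox2 (35.5 to 61.4) and in 76.0% of 129 with Sox2 (67.7 to 83.1). The late blastula intervals there had a median of 617 bp without and 486 bp with Sox2. Strand imbalance, the difference between forward and reverse reads as a share of all reads, had a median of 11.8% without and 6.56% with Sox2. Its quartiles were 5.85 and 18.9% without and 4.17 and 12.3% with Sox2, so the ranges overlapped. The authors' Wilcoxon filter p had a median of 0.00421 without and 6.28e-07 with Sox2. For length and filter p only medians were taken within these groups. In the lowest group (16 to 37 reads) the strand imbalance was 13.5% in both classes and the p 0.00510 without and 0.00217 with Sox2. By 512-cell reads the highest group (130 to 503) had a strand imbalance of 12.9% without and 8.07% with Sox2. What the strand imbalance and the Wilcoxon filter p have to do with the absence of Sox2 was not tested.

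**Figure D3:**
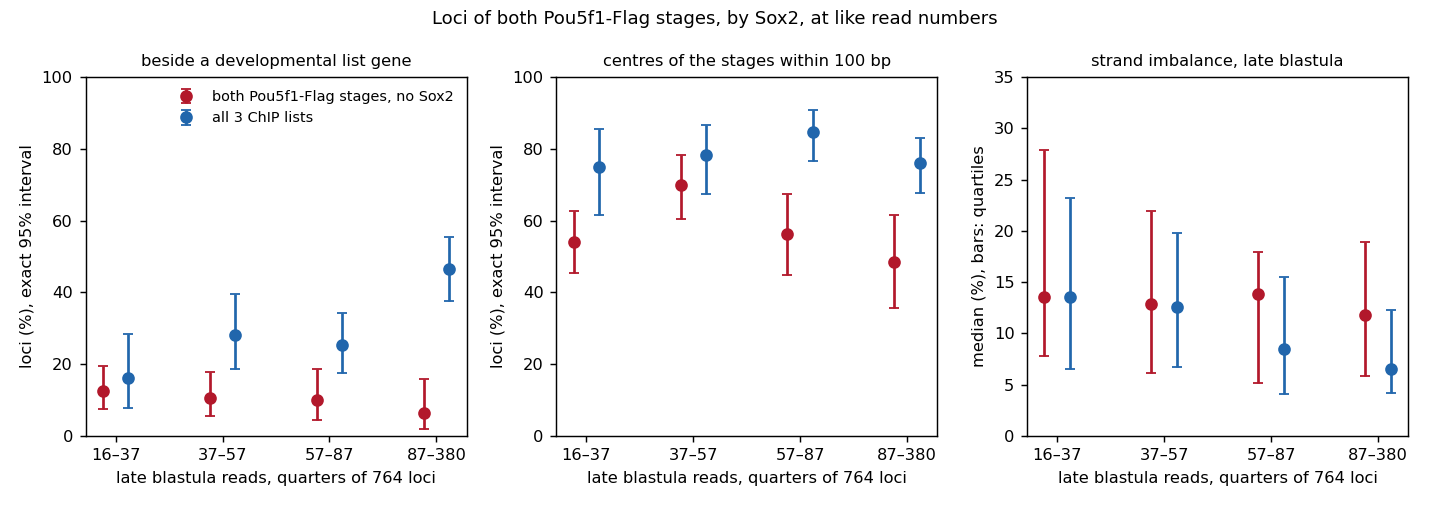
The 764 loci of both Pou5f1-Flag stages in 4 groups by late blastula reads (x axis, range of reads), without Sox2 and in all 3 lists. Panels show the share of loci beside a gene of the developmental lists and the share with stage centres within 100 bp (percent, bars are exact 95% intervals), and the median strand imbalance of the late blastula interval (percent, bars are quartiles). In the highest group 6.45% of loci without Sox2 and 46.5% of loci with Sox2 lay beside a developmental gene. The gene lists were chosen with earlier results of these data known.

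Sox2 intervals were about as far from the 390 loci as from Pou5f1 loci of a single stage. The nearest Sox2 interval was a median of 103.8 kb away (quartiles 24.7 and 254.4), against 92.4 kb for late blastula loci alone and 106.0 kb for 512-cell loci alone. Of all Pou5f1-Flag loci without Sox2, 12.6% had a Sox2 interval within 10 kb. These were 59 of 390 (exact 95% interval 11.7 to 19.1%) at the loci of both stages, 16.3% at late blastula loci alone and 10.3% at 512-cell loci alone. Within 100 kb it was 49.2%, 52.0% and 48.5%, in the same order. Loci in all 3 lists had a further Sox2 interval at a median of 7.10 kb.

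The Sox2 identifiers run along the genome and reach 7362, while 6129 intervals are listed. Jumps in the numbers may therefore mark Sox2 calls that the list leaves out, which is read from the numbering alone. Of the 390 loci, 379 lay between 2 Sox2 intervals of their chromosome. In 300 of these (79.2%, 74.7 to 83.1) the 2 flanking identifiers were consecutive, so no number was missing between them. In the other 79 at least 1 was. The same share was not taken for the other classes of loci, so whether it is particular to the 390 is unknown. None of the 390 loci overlapped a Sox2 interval that had been dropped for Input. The numbers of the Pou5f1-Flag lists exceed the listed intervals by more than those of Sox2. The last identifier is 13010 for 7130 intervals at late blastula and 26225 for 7747 intervals at 512 cells. Whether calls were left out of these lists was not tested, so a locus of a single stage may have an unlisted call at the other.

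**Figure D4:**
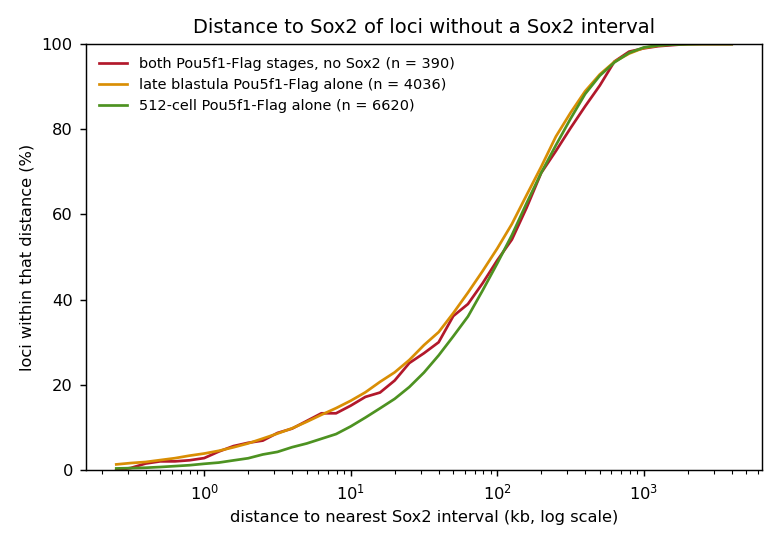
Share of loci (y axis, percent) with a Sox2 interval within a given distance (x axis, kb, log scale), for the 390 loci of both Pou5f1-Flag stages and for loci of either stage alone, all without an overlapping Sox2 interval. At 100 kb the curves stand at 49.2% (both stages), 52.0% (late blastula alone) and 48.5% (512 cells alone).

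The loci nearest to Sox2 show what lay just inside the rule. Between NM_001100139 and ppp1r3ca (49 late blastula and 93 512-cell reads) Sox2 lay 261 bp away, between harbi1 and mdka, the midkine gene (27 and 61 reads), 270 bp, and between tacc3 and mycla, a Myc family gene (34 and 65 reads), 329 bp. The lrfn1 and klhl13 loci followed at 343 and 363 bp. The farthest were at sgo1 and anxa14 (1739 kb), NM_001004121 (1491 kb), NM_201285 and rps27a (1178 kb), fsip1 and spra (1079 kb) and cdk5rap1 and gdf11 (887.7 kb). The 2 stages overlapped least at relt and serp1 (13 bp), anpepb.1 and ndrg4 (15 bp) and zgc:113162 and pnpla7a (18 bp). Just outside the rule, loci of all 3 lists overlapped Sox2 by 162 bp or more, the least at suz12a and rab11fip4a (116 late blastula, 214 512-cell and 164 Sox2 reads), at lancl2 and napga (204 bp) and at NM_001199134 and nup50 (217 bp). In 14 further pairs without Sox2 the stages missed each other by under 50 bp, the closest being zgc:172136 and zgc:171482 (6 bp), thbs3b and mtx1b (7 bp) and fstl4 and tcf7 (11 bp).

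Genes were named from 860 accessions beside the 390 loci, of which 823 (95.7%) matched a symbol. Both lists named the same 2 genes at 221 loci, 1 common gene at 142 and none in common at 27. The last included all 8 loci that the late blastula list puts between met and zgc:113984, a pair it names over 16.9 Mb of chromosome 25. There the 512-cell list names ctdspl2a and isl2a, klf13 and frs2b, and igf2b and th, among others. All 3 loci named by suz12a and rab11fip4a at late blastula, a pair given over 7.84 Mb of chromosome 3, also had other genes in the 512-cell list. A gene counts below when either list named it, and some were named at their locus by 1 list only. Among them, sall4, wnt7aa, sfrp1a, eef2b and chd4a were named there by the late blastula list only, and figla by the 512-cell list only.

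Of the 8848 genes beside any Pou5f1-Flag interval, 857 (9.69%) were beside one of the 390 loci and 749 (8.47%) beside a locus of all 3 lists. Over the 9 developmental gene lists, 36 of 297 genes were (12.1%, 8.64 to 16.4), against 86 (29.0%) for the loci in all 3 lists. Over the 5 comparison lists it was 11 of 93 genes (11.8%, 6.05 to 20.2), against the same 11 in number for the loci in all 3. The gene lists were chosen with earlier results of these data known, so the shares over them are descriptions only. Per locus, 41 of 390 (10.5%, 7.65 to 14.0) lay beside a developmental gene, against 119 of 374 (31.8%) in all 3 lists and 9.24% of the single-stage loci without Sox2. For comparison genes it was 16 of 390 (exact 95% interval 2.36 to 6.58%), against 4.81% in all 3 lists and 2.05% of the single-stage loci. A locus of both stages can take names from 2 lists and a single-stage locus from 1. With the names of the late blastula list alone, the 390 loci were beside a developmental gene in 10.0% (7.21 to 13.4) and a comparison gene in 3.59% (1.98 to 5.95), against 10.9% and 2.50% of late blastula loci alone. With those of the 512-cell list alone the shares were 8.46% (5.90 to 11.7) and 2.31% (1.06 to 4.34), against 8.26% and 1.77% of 512-cell loci alone. On equal naming each single-stage share lay within the interval of the 390 loci. The late blastula list names a few genes very often. It named suz12a, a comparison gene, at 60 intervals and pbx3b, a developmental gene, at 53, against 0 and 2 in the 512-cell list. How far the late blastula shares rest on such names was not tested. In the group with most late blastula reads the shares were 4 of 62 loci (6.45%, 1.79 to 15.7) without and 60 of 129 (46.5%, 37.7 to 55.5) with Sox2, and in that with fewest 12.6% and 16.1%.

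**Figure D5:**
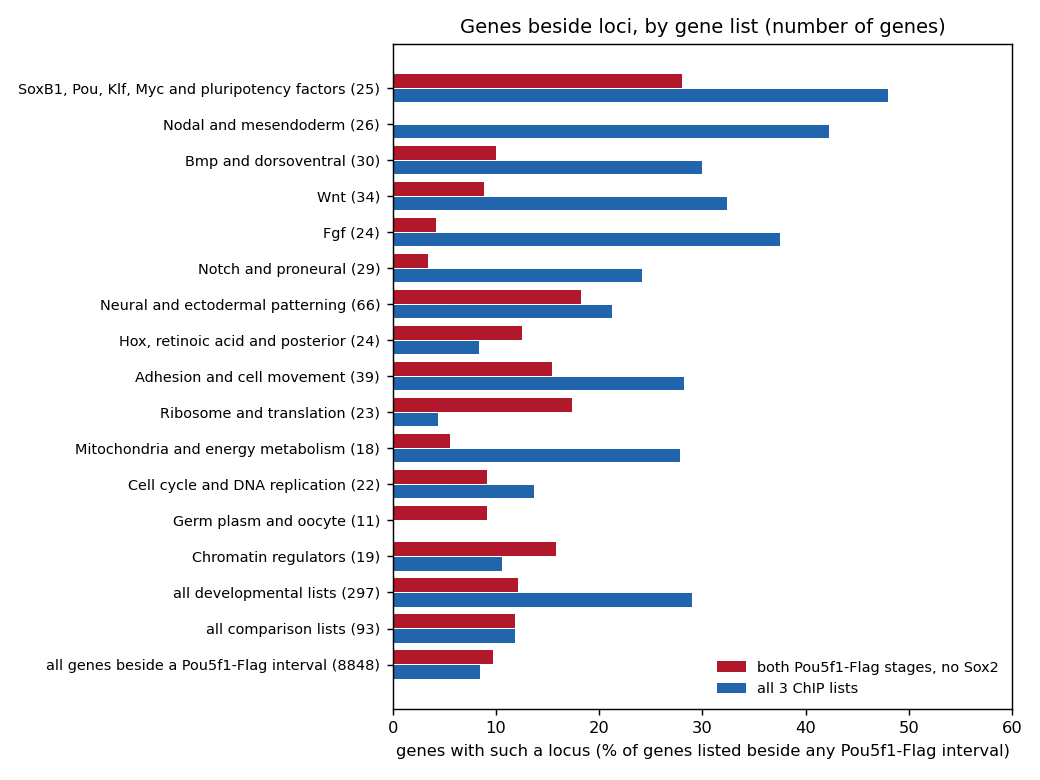
Share of the genes of each list (percent of those beside any Pou5f1-Flag interval, whose number is in brackets) that lay beside a locus of both Pou5f1-Flag stages without Sox2, or beside a locus in all 3 lists. Over all developmental lists the shares are 12.1% and 29.0%, over all genes 9.69% and 8.47%. The gene lists were chosen with earlier results of these data known.

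Of 25 genes for factors of the early embryo, 12 were beside a locus in all 3 lists. Beside the 390 loci there were 7 (28.0%, 12.1 to 49.4), against 9.69% of all genes. The strongest was at mycn, a Myc proto-oncogene family member (136 late blastula and 187 512-cell reads, chromosome 20, 33274885 to 33275545), and Sox2 lay 57.1 kb away although 13 Sox2 intervals were listed beside that gene. Next was sall4, a zinc finger gene of pluripotent cells (84 and 138 reads, chromosome 23, 39045682 to 39046247), with Sox2 1.01 kb away. It also had 3 loci in all 3 lists. The Krüppel-like factor gene klf2b (41 and 119 reads) and tfap2c, an AP-2 factor gene (40 and 58 reads), followed. The Sox2 list named 6 of the 7 genes, and 34 of all 36 developmental genes beside the 390 loci. Of all genes beside a Pou5f1-Flag interval it named 47.4%. The same share was not taken for the 297 developmental genes beside a Pou5f1-Flag interval. Whether 34 of 36 is particular to genes beside the 390 loci is thus unknown. Of the 7 genes, 4 also had a locus of all 3 lists.

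Of 66 neural and ectodermal patterning genes, 14 were beside a locus in all 3 lists. Beside the 390 loci there were 12 (18.2%, 9.76 to 29.6), against 9.69% of all genes. They were led by olig3, a helix-loop-helix gene of the dorsal neural tube (92 late blastula and 119 512-cell reads, chromosome 13, 1136980 to 1137508), and zic2b, a zinc finger gene of the neural plate (83 and 123 reads, chromosome 1, 28785893 to 28786564). The paired box gene pax3a (58 and 202 reads) and the Iroquois gene irx1a (57 and 147 reads) had higher ranks at 512 cells (81 and 261) than at late blastula (1732 and 1786). The Sox2 list named 11 of the 12, and its share over all 66 genes was not taken. It did not name zic2b, although 2 loci of all 3 lists, and so with Sox2, were beside that gene by the Pou5f1-Flag lists.

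Signalling genes were beside the 390 loci at shares of 0 to 10.0% per list, near or below the 9.69% of all genes. Of 26 Nodal and mesendoderm genes there were 0 (exact upper limit 13.2%, and 11.5% by the limit of 3 counts), against 11 genes with a locus in all 3 lists. Of 24 Fgf genes there was 1, the receptor gene fgfr2, with 3 loci of 48, 35 and 23 late blastula and 51, 54 and 129 512-cell reads, against 9 genes in all 3 lists. Of 29 Notch and proneural genes there was 1, the proneural gene ascl1a (26 and 48 reads), against 7. Of 34 Wnt genes there were 3, against 11, and these were the Frizzled receptor gene fzd7a (64 and 60 reads), the ligand gene wnt7aa (33 and 45) and the secreted inhibitor gene sfrp1a (26 and 66). Of 30 Bmp and dorsoventral genes there were 3, against 9. They were vent, a ventral homeobox repressor named by the 512-cell list only (86 and 109 reads), nog1, which encodes the Bmp antagonist Noggin (50 and 173), and gata3, with 2 loci (the stronger with 35 and 79).

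Hox, retinoic acid and posterior genes gave 3 of 24 (12.5%, 2.66 to 32.4), against 2 for the loci in all 3 lists. That interval holds the 9.69% of all genes. The 3 were hoxc1a (95 late blastula and 79 512-cell reads), the retinoic acid receptor gene raraa (79 and 61) and hoxb1a (19 and 52). Adhesion and cell movement genes gave 6 of 39 (15.4%, 5.86 to 30.5, which also holds 9.69%), against 11. They were led by cdh11, a cadherin gene (111 and 100 reads), the planar polarity gene prickle1b (77 and 115), the Eph receptor gene epha2a (51 and 60) and the chemokine receptor gene cxcr4b (36 and 56). From these loci of prickle1b, epha2a and cxcr4b a Sox2 interval lay 3.04, 1.21 and 1.24 kb away.

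Among comparison genes, those of the ribosome and translation were beside 4 of 23 (17.4%, 4.95 to 38.8), against 1 for the loci in all 3 lists. They included rps27.1 (76 late blastula and 140 512-cell reads), which encodes a protein of the small ribosomal subunit, and the translation factor genes eif5a (41 and 65) and eef2b (58 and 54). Chromatin regulators were beside 3 of 19, against 2. These included suz12a by the late blastula names (184 and 78) and the remodeller gene chd4a (43 and 61). Cell cycle genes gave 2 of 22, mcm3 and ccne2, a cyclin E gene (77 and 49 reads), against 3. Mitochondrial and energy genes gave 1 of 18, the enolase gene eno1a (44 and 57), against 5. Germ plasm and oocyte genes gave 1 of 11, figla, an oocyte helix-loop-helix gene (50 and 53), against 0.

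MicroRNA genes, whose short RNAs repress messenger RNAs, were named beside 15 of the 390 loci, 1 each. These were 15 of 157 microRNA genes beside any Pou5f1-Flag interval (9.55%, 5.45 to 15.3), near the 9.69% of all genes. Both lists named 9 of them. The late blastula list alone named mir125b-3, and the 512-cell list alone named dre-mir-137-2, dre-mir-190a, dre-mir-23b, mir124-2 and mir193a-1. The most late blastula reads lay at dre-mir-190a (133 late blastula and 69 512-cell reads) and mir15a-1 (123 and 98), and the most 512-cell reads at mir125b-3 (45 and 232), dre-mir-137-2 (34 and 159) and mir17a-1 (96 and 127, chromosome 1, 2804189 to 2804663). The others were mir203b (94 and 53), mir202 (86 and 109), which is the vent locus, mir2195 (80 and 88), mir193a-1 (55 and 46), dre-mir-99-2 (48 and 84), mir124-2 (47 and 35), dre-mir-727 (46 and 57), mir125b-1 (31 and 94), dre-mir-23b (23 and 51) and dre-mir-29b-1 (22 and 55). Sox2 lay within 10 kb of the loci named by mir15a-1, mir202, dre-mir-727 and dre-mir-99-2. Distances to the microRNA genes themselves were not taken.

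Of the 857 genes beside the 390 loci, the Sox2 list named 484 (56.5%, 53.1 to 59.8) at other positions. Of all 8848 genes beside a Pou5f1-Flag interval it named 47.4%. The genes were not matched for their number of Pou5f1-Flag intervals or for the lists that named them. At least 1 gene named by the Sox2 list was beside 306 of 390 loci (78.5%, 74.0 to 82.4), against 71.2% of the single-stage loci without Sox2. With the names of the late blastula list alone it was 76.7% (72.1 to 80.8), against 74.7% of late blastula loci alone. With those of the 512-cell list alone it was 72.1% (67.3 to 76.5), against 69.0% of 512-cell loci alone. The 8 loci of met and the 3 of suz12a count in the 78.5% by late blastula names given over 16.9 and 7.84 Mb. The Sox2 list named met 68 times and suz12a 64 times. Genes with 3 or more of the 390 loci were met and zgc:113984 (8 loci), fsip1 (5), and with 3 each cry2, gnb5a, ctnna2, fgfr2, jkamp, lims1, rgs3a, spoplb, tmem121ab, suz12a, rab11fip4a, NM_201285, rps27a and rtn4a. The last 3 share their loci, as do cry2 with gnb5a, and suz12a with rab11fip4a. The Sox2 list did not name cry2, tmem121ab, rps27a or rtn4a. The 3 loci between cry2 and gnb5a had 380, 101 and 71 late blastula and 187, 59 and 53 512-cell reads and no locus of all 3 lists. Those of ctnna2, an alpha-catenin gene of neurons, had 137, 69 and 37 late blastula and 279, 53 and 221 512-cell reads.

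The 390 loci were spread over all 25 chromosomes. Chromosome 5 held 28, the most, and chromosome 22 held 9, the fewest. Relative to all 11046 Pou5f1-Flag loci without Sox2, of which 3.53% were present at both stages, the share was highest on chromosome 25 (23 of 338 loci, 6.80%) and lowest on chromosome 17 (10 of 433, 2.31%). The met stretch gave 8 of the 23. The loci were mostly single, since 18 of 390 (4.62%) had another within 10 kb and 43 within 100 kb. An Input interval lay within 10 kb of 2 of them (0.513%, 0.0622 to 1.84), against 7 of 374 (1.87%) in all 3 lists, 5.53% of late blastula loci alone and 1.30% of 512-cell loci alone.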

How the data were processed

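ChIP-seq peak lists of 4 zebrafish samples, 1 per group, were used. Embryos were fixed in 1% paraformaldehyde, per the labels' protocols. The submitters' processing notes name CASAVA. The aligner, caller and thresholds were not given in the sources used here. Per the file headers, each deposited interval carries counts of reads per strand and in all, the false discovery rate as a percent, a Wilcoxon filter p-value and a strand difference as a fraction, all by the authors. Peaks were listed per sample. The Pou5f1-Flag list of late blastula covers the genome in 2 passes (1217 and 5913 intervals), which were merged. Identifiers of the late blastula lists name the build Zv9, which was assumed for the 512-cell list.

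Intervals were filtered, merged and compared in Python 3.11.15 (pandas 2.3.3, scipy 1.17.1), and tested on simulated intervals with known classes. Where a locus held several intervals of a list, the one with most reads was used. Shares have exact Clopper-Pearson 95% intervals over loci or genes. There is no depth per sample, no test and no replicate. Gene symbols came from RefSeq accessions through a table of assembly GRCz12tu, used for names alone. Named loci were those with the best worse rank, the most reads, the most unequal percentile ranks, the least and greatest Sox2 distance, genes with 3 or more loci, up to 4 genes per gene list, microRNA genes, and the 3 loci with the least overlap of the stages or with Sox2. The 3 pairs of stages that just missed each other and the 512-cell gene names within the met stretch were chosen after their values were seen. Some loci that the rule names are not reported here. The loci and the 14 gene lists were chosen with earlier results of these data known. No sequence is printed, as no Zv9 genome was used here. The alternatives tried were the Input filter, the overlap required, the distance to Sox2, stricter peaks, the list passes and gene names from 1 list.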

Additional observations from a re-analysis of the deposited data

How the results depend on the processing

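Of 126 values (10 results, with 4 of the alternatives added after seeing the data), 99 stayed within the interval of the reported value or, for the number of loci, within 1.5 times. With an overlap of at least 100 bp the shares of late blastula and 512-cell loci without Sox2 present at the other stage were 7.71% and 4.89%, and with stage centres within 100 bp they were 5.13% and 3.24%, of 227 loci. Keeping intervals with reads at or above the list median gave 226 loci, shares of 11.4% and 6.59%, medians of 63.5 and 93 reads, and a gene with Sox2 elsewhere at 58.4%. Keeping those with a false discovery rate at or below the median gave 238 loci, medians of 58 and 93 reads and 59.2%. Both alternatives also thin the Sox2 list. The first pass of the late blastula list alone gave 38 loci, shares of 7.65% and 0.541%, medians of 34.5 and 69 reads, Sox2 within 10 kb at 21.1% and 0 intervals of 500 to 510 bp. With no Sox2 interval allowed within 5 kb, Sox2 within 10 kb was at 4.06%, by construction. Keeping the 300 loci between consecutive Sox2 identifiers, chosen after seeing the data, gave 6.78% and 4.28%. This setting and that of the stage centres kept fewer loci, still divided by the same 4426 late blastula and 7010 512-cell loci. The shares of these 2 settings thus fell by construction. Gene names of the 512-cell list alone, likewise added, gave a gene with Sox2 elsewhere at 72.1% and a comparison gene at 2.31%. No paired analysis was possible because each group held 1 sample and no result comes from a test. Unknown library depth limits every statement that a peak was not listed.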
